A study of Gelatoporia subvermispora and Trametes versicolor with 24 samples.

Results

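Heme-thiolate peroxidases (HTP) are the genes of Gelatoporia subvermispora described here, across cultures given vanillate or water. They were chosen by identifier, as every gene of the G. subvermispora count tables whose name is HTP followed by a number, which gave 9 genes, HTP1 to HTP9, of 12313. All 9 passed the filter on low counts and were among the 10318 genes tested. The files name no product for any of them, so the name HTP rests on the symbol alone.

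In this family of enzymes the heme iron is held by the sulfur of a cysteine, as in cytochrome P450, and the oxygen comes from hydrogen peroxide. Characterised members, best known from the mushroom Agrocybe aegerita and from the chloroperoxidase of the mould Leptoxyphium fumago, are secreted and put oxygen into organic compounds or halogenate them, and those of A. aegerita also cleave ethers, including the methoxy groups of aromatic rings. White-rot fungi degrade lignin with secreted oxidative enzymes, and their genomes usually carry several HTP genes, most of which have no assigned substrate. Nothing in the sources used here says which of the 9 genes does what.

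G. subvermispora strain FP-105752 was grown as a monokaryon, mycelium of a single nuclear type, a label that counts per gene do not check. Every flask stood still in the dark at 28 °C in a medium with 5 g/L cellobiose, and on day 12 was supplied with 2 antioxidants, ascorbic acid at 5 mM and α-tocopherol at 1 mM, so that the controls carried these too. From 30 min later the vanillate group was given vanillate, the anion of a methoxylated aromatic acid related to lignin, as 2 additions separated by 12 h that brought it to 2 mM, and the water group was given water in its place. Mycelium was taken 12 h after the last addition, on day 13, and there were 3 replicate numbers per group, each with 2 libraries whose counts were summed and taken as 1 flask. The labels do not say what the second library is, and they speak of 6 cultures of the fungus in the design but of 12 in the growth protocol. If the libraries came from separate cultures, n = 3 would count pairs of cultures. The series is about the catabolism of methoxylated compounds from lignin, and a second fungus in it was not used here.

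Flask totals were 6119420 to 12333618 gene counts. Libraries of the same flask differed by a chi-square per degree of freedom of 1.01 to 1.06, against 2.88 to 8.65 between flasks of a group. Read classes moved with the treatment: reads of low alignment quality made up 4.22%, 4.04% and 5.57% of the water flasks and 12.3%, 5.98% and 6.74% of the vanillate flasks, and reads outside genes 7.09% to 7.41% and 5.86% to 6.27%, both without overlap. Their part in the changes below was not tested. Vanillate replicate 1 also had the lowest total, and without that flask the same 4 HTP genes were called, with log2 changes of 0.50 for HTP7, 0.41 for HTP1, -0.82 for HTP4 and -0.71 for HTP3. Of all genes tested, 51.4% were called at an adjusted p under 0.05, 25.5% as higher with vanillate and 25.9% as lower. Levels below are CPM, counts scaled by library size with TMM factors, and changes are log2 fold changes of vanillate against water from edgeR's quasi-likelihood test, with p-values adjusted by Benjamini-Hochberg over all genes tested.

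Of the 9 HTP genes, HTP7 and HTP1 rose with vanillate, HTP4 and HTP3 fell, and HTP2, HTP5, HTP6, HTP8 and HTP9 did not pass. That is 4 of 9 called, close to the 51.4% of all genes, so being called does not set the family apart. No HTP gene changed as much as 2-fold. Of all genes, 7.4% were called with at least a 2-fold change, so 0 of 9 does not set the family apart either. The values of 7 genes were above 0 on the log2 scale and those of 2 were below it, with a median of 0.29, while the median of all genes was -0.01 and 48.9% of them were above 0. The median absolute log2 change was 0.34 in the family and 0.29 over all genes. In cultures like these, less RNA per cell and fewer cells making it cannot be told apart.

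**Figure D1:**
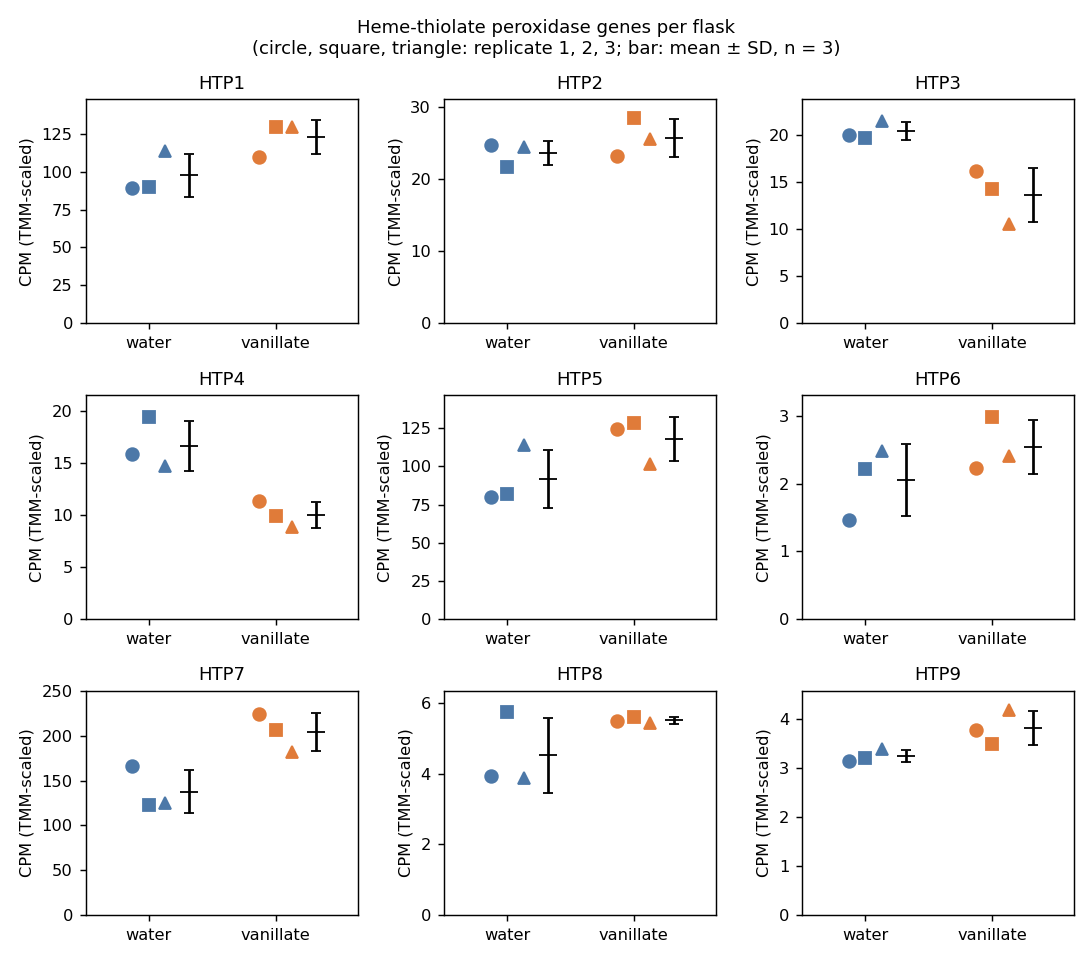
Each panel plots 1 HTP gene, with the level in CPM on the vertical axis, the water and vanillate flasks as points shaped by replicate number, and the mean ± SD (n = 3) as a bar beside them. The vanillate flasks lie above all water flasks for HTP7 and HTP9 and below all of them for HTP3 and HTP4, and the groups overlap for the other 5 genes.

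HTP7 took the most reads of the family and rose the most. Its level was 166, 123 and 125 CPM in water replicates 1, 2 and 3 and 225, 207 and 183 CPM in vanillate replicates 1, 2 and 3. Every vanillate flask was above every water flask, and water replicate 1 stood highest among the controls. The means were 138 ± 24.4 CPM and 205 ± 21.2 CPM (SD, n = 3), a 1.48-fold rise, or 0.57 on the log2 scale with an SE of 0.13 (adjusted p = 0.00558). The 95% interval ran from 0.28 to 0.86. The groups differed in this way without overlap in 4 of the 9 HTP genes, against 59.2% of all genes, 29.1% as higher and 30.1% as lower.

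HTP1 rose less, and its groups overlapped. It was at 89.4, 89.7 and 114 CPM in the water flasks and at 110, 130 and 129 CPM in the vanillate flasks, so that water replicate 3 exceeded vanillate replicate 1. From 97.7 ± 14.0 CPM to 123 ± 11.3 CPM the rise was 1.26-fold, a log2 value of 0.34 with an SE of 0.10 (adjusted p = 0.0169). This call is the least stable of the 4. Without water replicate 1 or 2 the log2 change was 0.27 or 0.28 (adjusted p = 0.0535 and 0.0635), and without vanillate replicate 2 or 3 it was 0.30 in both cases (adjusted p = 0.0680 and 0.0668). Scaled by library totals alone it was 0.21 (adjusted p = 0.0796), 1.59 times smaller.

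HTP4 fell the most. The water flasks held 15.9, 19.4 and 14.7 CPM and the vanillate flasks 11.3, 9.88 and 8.87 CPM, and all vanillate flasks lay below all water flasks. The mean went from 16.6 ± 2.43 to 10.0 ± 1.24 CPM, which was 1.68-fold lower, or -0.75 on the log2 scale with an SE of 0.15 (adjusted p = 0.000703). It rested on 464 water and 267 vanillate counts, and the 95% interval, -1.06 to -0.43, was the only one of the 9 to reach a 2-fold change.

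HTP3 fell as well. In water it was at 20.0, 19.7 and 21.5 CPM, and with vanillate at 16.1, 14.2 and 10.5 CPM. Its SD in water, 4.58% of the mean, was below the 7.24% that counting error alone would give. The vanillate flasks were all lower, and vanillate replicate 3 was the lowest. The means were 20.4 ± 0.93 and 13.6 ± 2.85 CPM, a log2 value of -0.60 with an SE of 0.14 (adjusted p = 0.00266), from 572 and 362 reads.

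HTP5 had a log2 change close to that of HTP1 but did not pass. Its levels were 79.6, 82.1 and 114 CPM in water and 125, 128 and 101 CPM with vanillate. Water replicate 3 was above vanillate replicate 3, and the groups overlapped. The log2 fold change was 0.36 (SE 0.16, 95% interval -0.03 to 0.75, adjusted p = 0.111). Without water replicate 3 it was 0.54 (adjusted p = 0.000332), 1.52 times as large, and the DESeq2 Wald test on all flasks called it at 0.37 (adjusted p = 0.0142). The first library of each flask alone also called it (adjusted p = 0.0420), while the second did not (adjusted p = 0.151), both with log2 changes near 0.35.

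HTP2 had the value nearest to 0. It stood at 24.7, 21.7 and 24.5 CPM in water and at 23.2, 28.5 and 25.6 CPM with vanillate, ranges that overlap. The log2 fold change was 0.13 (SE 0.11, adjusted p = 0.308), and the 95% interval of -0.09 to 0.36 leaves room for a small rise or fall but not for one the size of HTP7's or HTP4's estimate. Leaving out a single flask gave 0.05 to 0.19 for HTP2, the lowest without vanillate replicate 2.

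HTP6, HTP8 and HTP9 were counted rarely, with 58, 126 and 91 counts over the 3 water flasks and 71, 150 and 103 over the 3 vanillate flasks. HTP6 ranged from 1.46 to 2.48 CPM in water and from 2.23 to 2.98 CPM with vanillate (log2 fold change 0.33, 95% interval -0.24 to 0.90, adjusted p = 0.319). HTP8 was at 3.94, 5.75 and 3.87 CPM in water and at 5.49, 5.62 and 5.43 CPM with vanillate, and water replicate 2 was above all vanillate flasks (log2 fold change 0.29, 95% interval -0.13 to 0.71, adjusted p = 0.227). HTP9 had all its vanillate flasks just above its water flasks, at 3.15, 3.21 and 3.38 CPM in water and 3.78, 3.49 and 4.17 CPM with vanillate, yet its log2 fold change of 0.23 did not pass (SE 0.20, adjusted p = 0.368). Single flasks weighed on these values: HTP8 was 0.50 without water replicate 2 (adjusted p = 0.0628), with a range of 0.19 to 0.50 over the flasks left out. HTP6 was 0.14 without water replicate 1, 0.17 without vanillate replicate 2 and 0.50 without water replicate 3, and HTP9 was 0.15 without vanillate replicate 3. A change of the size seen in HTP1 was not detectable in these 3 genes at this depth and spread.

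**Figure D2:**
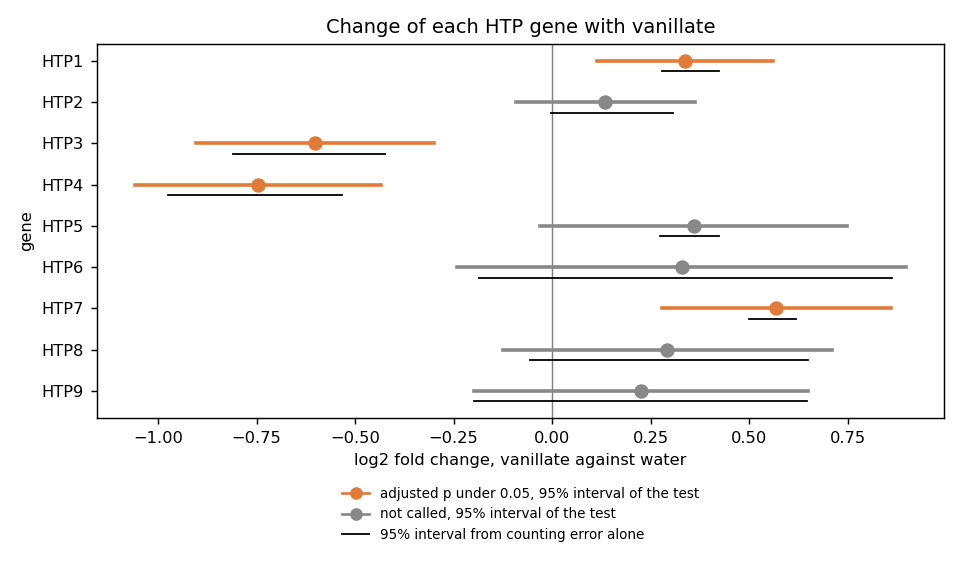
The plot shows the log2 fold change of each HTP gene (horizontal axis) with its 95% interval from the test, coloured where the adjusted p was under 0.05, and below it, in black, the 95% interval that counting error alone would give. The test's interval is much wider than the counting interval for HTP1, HTP5 and HTP7 and about as wide for HTP8 and HTP9.

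The error behind these values had different sources in different members. For HTP1, HTP5 and HTP7, counting error alone would give a coefficient of variation of 2.34% to 3.40% per flask, and the flasks of a group varied by 9.22% to 20.7%. For these genes the spread between flasks, not depth, limits the comparison. For HTP6, HTP8 and HTP9 the counting error was 14.1% to 22.7%, and the flasks varied by 1.81% to 25.8%. In water the flask spread exceeded counting error for HTP8, at 23.6% against 15.4%, and slightly for HTP6, at 25.8% against 22.7%. The SD of HTP8 in the vanillate flasks was 1.81% of its mean, and in water that of HTP9 was 3.63% and that of HTP3 was 4.58%. These were smaller than counting error allows on average, so such small SDs do not show that the flasks were alike. Each gene was also fitted in the first and in the second library of every flask separately. HTP7 gave 0.50 and 0.62, HTP1 0.45 and 0.26, HTP4 -0.74 and -0.75, and HTP3 -0.64 and -0.58 on the log2 scale, all 4 called in both sets. These sets share their flasks and are not independent.

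Summed over the family, the share of gene counts that HTP genes took had a mean of 0.0415% ± 0.00253 under water and of 0.0485% ± 0.00266 under vanillate (SD, n = 3). With TMM scaling the summed level was 404, 366 and 423 CPM in the water flasks and 522, 530 and 470 CPM in the vanillate flasks. All vanillate flasks were above all water flasks in both measures. The ratio of the means was 1.27 with TMM scaling and 1.17 for the share of gene counts, so its size depends on the scaling. The sum mostly follows 3 genes: HTP1, HTP5 and HTP7 together held 82.2% ± 1.60 of the HTP counts in water and 87.9% ± 0.15 with vanillate. These shares are of read counts, not per gene length, and no lengths were used here, so they do not rank the genes by transcript number.

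HTP3 and HTP4, grouped here because both were called lower, held less of the family's counts with vanillate. As the family's sum rose, this follows from those falls and is no separate result. Together HTP3 and HTP4 held 8.87%, 10.7% and 8.55% of HTP counts in the water flasks and 5.27%, 4.55% and 4.13% in the vanillate flasks, without overlap. HTP7 held 34.7% ± 5.87 in water and 40.3% ± 2.38 with vanillate, and its flasks overlapped, since water replicate 1 reached 41.1%. The share of HTP1 was 24.5% ± 2.40 and 24.4% ± 3.21, and that of HTP5 was 23.0% ± 3.64 and 23.2% ± 1.45.

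**Figure D3:**
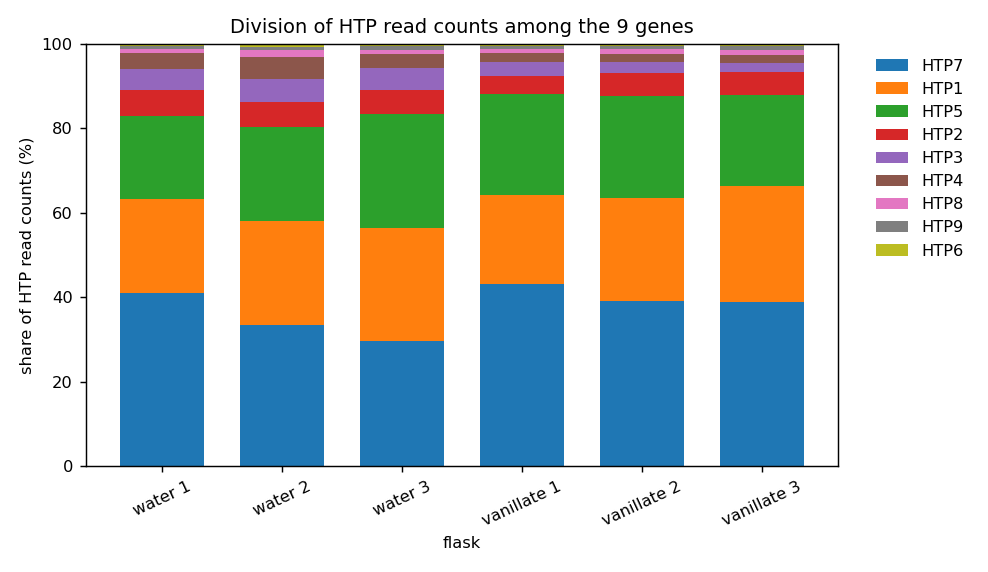
Stacked bars show, for each flask (horizontal axis), the percentage of all HTP read counts that fell to each of the 9 genes. HTP7, HTP1 and HTP5 fill 80.4% to 88.1% of every bar, and the segments of HTP3 and HTP4 are thinner in all vanillate flasks.

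Ratios of counts between members within a flask need no scaling between libraries, and they showed the same divergence. There were 10.5, 6.34 and 8.50 reads of HTP7 for each read of HTP4 in the water flasks and 19.8, 21.0 and 20.6 in the vanillate flasks, a change of 1.31 on the log2 scale. The ratio of HTP7 to HTP3 went from 6.78 ± 1.33 to 15.3 ± 1.81, and that of HTP1 to HTP4 from 6.01 ± 1.59 to 12.5 ± 2.51, also without overlap. These pairs were picked because their members had moved apart, and the ratios are descriptions with no test. The members that moved the same way had ratios that overlapped between the groups. HTP3 to HTP4 was 1.25 ± 0.22 in water and 1.35 ± 0.14 with vanillate, a log2 change of 0.13. HTP7 to HTP1 was 1.44 ± 0.39 and 1.68 ± 0.33, a log2 change of 0.24. Overlap among so few flasks does not show that these ratios stayed the same.

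Within the water group, HTP1 and HTP5 were highest in the same flask and HTP7 in another. Water replicate 1 had the highest HTP7 of the controls, and its ratio of HTP7 to HTP5 was 2.09, whereas water replicate 3 had the highest HTP1 and HTP5 and a ratio of 1.10. In the vanillate flasks this ratio was 1.80, 1.62 and 1.80, inside the range of the controls.

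**Figure D4:**
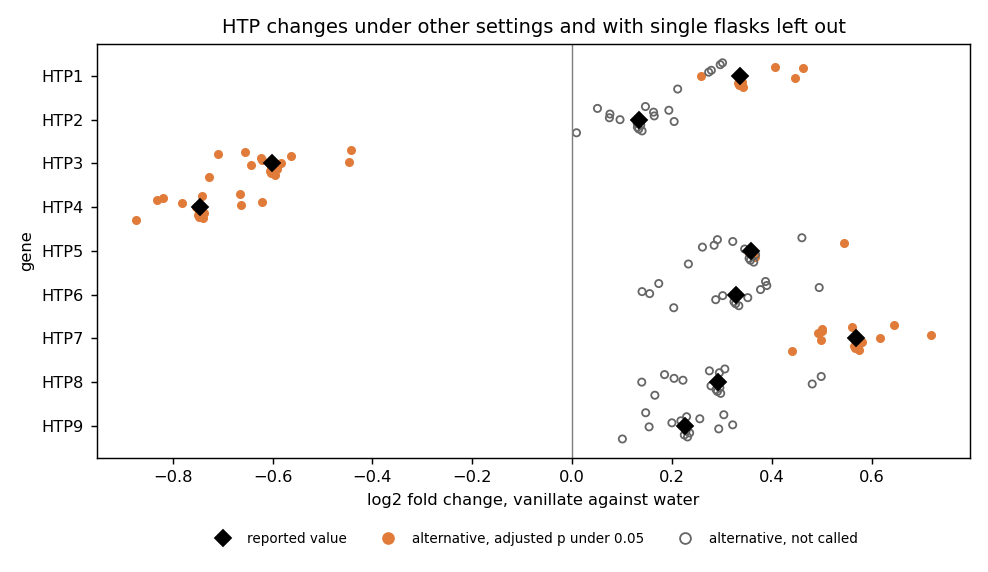
For each HTP gene the black diamond marks the reported log2 fold change (horizontal axis) and the circles mark it under the other settings and with single flasks left out, filled where the adjusted p was under 0.05 and set at different heights only to keep them apart. All circles of HTP3 and HTP4 lie below 0 and all circles of the other 7 genes above 0, and those of HTP3, HTP4 and HTP7 are all filled.

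No gene of the 9 changed sign with the scaling, but all 9 values were lower with library totals. Scaling by library totals alone moved the median of all genes from -0.01 to -0.14 on the log2 scale and the share of calls that were higher from 49.6% to 31.9%. The HTP median moved along with it, from 0.29 to 0.17, and 7 of 9 genes stayed above 0, though HTP2 only just, at 0.01 (adjusted p = 0.951), and HTP9 at 0.10 (adjusted p = 0.707).

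Other oxidative enzymes of the fungus give the setting in which these changes stood. Class II peroxidases are secreted, their heme iron is held by a histidine, and many of them attack lignin. The list includes GP, a generic peroxidase by its symbol, with a log2 change of -0.41 (adjusted p = 0.00088). Of all genes, 25.9% were lower and 25.5% higher. Of 15 class II genes tested, of 16 in the tables, 9 were lower and 1 was higher, with a median log2 change of -0.45. Among them MnP2, a manganese peroxidase by its symbol and the most counted, had a log2 value of -2.03 with an SE of 0.08 (adjusted p = 1.81e-10), LiP2, by its symbol a lignin peroxidase, of -2.23 with an SE of 0.07 (adjusted p = 2.1e-11), and MnP4 of 0.55 with an SE of 0.21 (adjusted p = 0.0378), a call lost in several settings. Of 7 laccases, copper oxidases of phenols, 2 rose and 3 fell, with a median of -0.13, against 51.4% of all genes called either way. Cslcs7 rose by 1.24 and Cslcs2 fell by 1.33 (adjusted p = 0.000126 and 0.0143), while the most counted, Cslcs1, did not pass at 1.00 (SE 0.43, adjusted p = 0.121). Of the enzymes that remove peroxide, the co-substrate of HTPs, a search by symbol found a peroxiredoxin and a cytochrome c peroxidase. PRX5 rose by 1.45 (SE 0.09) and CCP by 1.32 (SE 0.07), with adjusted p of 1.02e-08 and 2.78e-09. For peroxide-producing oxidases, the 110 named genes were searched for cro, AOX, AAO, MOX, POX and GOX with an optional number, and none matched. Symbols spelled otherwise, such as with the prefix Cs, would have been missed in both searches, so absence of such genes is not shown. The changes of HTP genes, from -0.75 to 0.57, spanned a narrower range than those of the class II peroxidases, from -2.23 to 0.55, or of the laccases, from -1.33 to 1.24. Differences between these families were not tested.

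**Figure D5:**
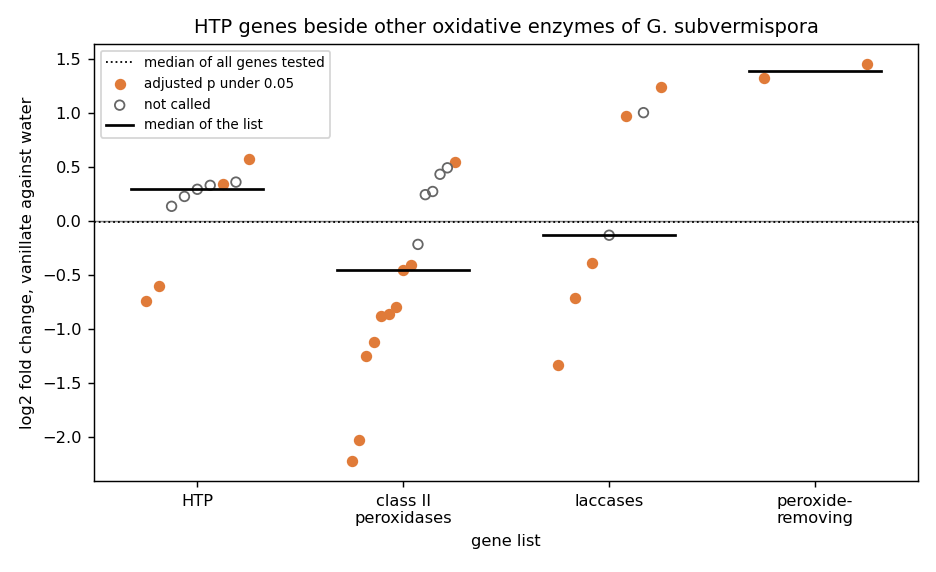
Each point is the log2 fold change (vertical axis) of 1 gene of the HTP, class II peroxidase, laccase or peroxide-removing list, filled where the adjusted p was under 0.05, with the list's median as a bar and the median of all genes as a dotted line. HTP genes lie between -0.75 and 0.57, with 2 of 9 below 0, while class II peroxidases reach -2.23 and the peroxide-removing genes lie at 1.32 and 1.45.

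The genes whose pattern over the 6 flasks was most like that of each called HTP gene were found by the root mean square difference of log2 CPM, each gene centred on its own mean, among 8959 genes outside the family with a mean of at least 5 CPM. For HTP7 the closest was CERSUDRAFT_121713, at a difference of 0.05, and the closest with a symbol was TOR1, a growth-regulating kinase by its symbol, at 0.13 and in place 114. For HTP1 they were CERSUDRAFT_52660 at 0.04 and, in place 32, Csfet3, by its symbol an iron-oxidising multicopper oxidase, at 0.09. For HTP4 they were CERSUDRAFT_116950 at 0.05 and, in place 55, the manganese peroxidase MnP9 at 0.13, whose log2 change was -0.79 (adjusted p = 3.46e-05). For HTP3 they were CERSUDRAFT_159707 at 0.04 and, in place 29, CsPh9, a symbol with no function given here, at 0.12.

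The next places for HTP7 went to CERSUDRAFT_118346 and CERSUDRAFT_124543, and among symbols to CsSTE3.5 and pab1. For HTP1 they went to CERSUDRAFT_97125 and CERSUDRAFT_99406, and to nps2 and CsMn41. For HTP4 they were CERSUDRAFT_86521 and CERSUDRAFT_113084, then CsPh9 and the laccase Cslcs5, and for HTP3 CERSUDRAFT_94321 and CERSUDRAFT_126077, then CsSTE3.3 and the laccase Cslcs6. Within the family HTP3 and HTP4 were 0.18 apart by the same measure, while HTP7 stood 0.61 from HTP3 and 0.68 from HTP4. HTP9 and HTP1 had the smallest difference, 0.15, although HTP9 did not pass, but HTP9 and HTP2 at 0.15 and HTP1 and HTP2 at 0.16 were nearly as close. With means of 3.24 and 3.81 CPM, HTP9 lay under the level of 5 CPM asked of genes outside the family. Its place in this order is therefore uncertain.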

How the data were processed

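The authors deposited raw read counts per gene, with no normalization, as 1 table per library; FastQC, STAR and HTSeq are listed in the submitters' processing notes, with no version. For the genome build, annotation and counting options, including strand, the sources used here state nothing. Libraries came from total RNA with a stranded kit, sequenced as single reads, per the labels' protocols. The last 5 lines of each table, reads not counted to any gene, were left out of totals and tests. They include reads outside genes, ambiguous reads and reads of low alignment quality. Genes took 78.5% ± 1.82 of reads in water flasks and 74.1% ± 3.53 with vanillate. Reads shared by near-identical copies of HTP genes could have been lost or split, so their values are uncertain.

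The 2 libraries with the same replicate number were summed into 1 flask. The labels do not say whether flasks had separate seed cultures, so p-values reflect only the spread among these flasks, which may be technical. The 6 flasks were fitted with edgeR 4.0.16 in R 4.3.3: filterByExpr (min.count 10, min.total.count 15), TMM, robust quasi-likelihood F test, two-sided, with genes called where the adjusted p (Benjamini-Hochberg) was under 0.05. The SE was derived from the log2 fold change and the F statistic. The code was tested on simulated data in which few genes changed, each by more than any HTP gene did here. That test does not bear on the choice of scaling or on changes as small as those of the HTP genes. Counting intervals are exact 95% binomial intervals of the counts of both groups and cover counting error only. DESeq2 1.42.0 was an alternative; log2 CPM used a prior count of 2.

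All 9 members were named; for each called member the 3 genes most like it, and the 3 with a symbol, were named, and for each other list the most counted member and the most changed called members. Members and lists were chosen with earlier results of these data known. No sequences or coordinates were used.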

Additional observations from a re-analysis of the deposited data

How the results depend on the processing

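Across 15 alternatives, 6 of them leaving out a flask, 0 of the 9 HTP genes changed direction, although HTP2 came as near to 0 as 0.01 with library totals, and HTP3, HTP4 and HTP7 were called under all 15, with log2 changes of -0.73 to -0.44, -0.87 to -0.62 and 0.44 to 0.72. HTP6 and HTP9 did not pass the stricter filter on levels (3 or more flasks at 5 CPM or above) and had 14 alternatives. HTP1 lost its call under 5 and HTP5 gained one under 3. The count of HTP genes called higher was 1 with library totals and 1 to 3 on leaving out a flask, and the count called lower was 2 throughout. Class II peroxidases called higher were 0 with library totals, with the stricter filter, with the DESeq2 Wald test, with the first library of each flask and at equal depth, and 0 to 1 on leaving out a flask. Laccases called higher were 1 with the stricter filter and 3 without water replicate 1, and those called lower were 2 without vanillate replicate 2. The stricter filter left 12 class II genes and 6 laccases to test, against 15 and 7 in the reported fit. Genes it removed could not be called there.

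Over all genes, deviations from the group means correlated at -0.03, 0.03 and -0.14 for replicate numbers 1, 2 and 3. Of 6 flasks, 1 correlated best with the flask of its own number. With 3 flasks a group this cannot exclude a pairing by number. The ratio of HTP7 to HTP1 fell in replicate order in both groups, at 1.86, 1.37 and 1.10 in water and 2.05, 1.60 and 1.41 with vanillate. None of the other ratios computed had the same order in both groups. That of HTP7 to HTP3 fell in water, at 8.30, 6.23 and 5.82, and rose with vanillate, at 13.9, 14.6 and 17.3. A shared order in a ratio picked from several is no sign of pairing by itself, and this was not tested. With a replicate block the HTP counts were 2 higher and 2 lower, and over all genes 2522 were higher and 2553 lower, against 2629 and 2675. The block lowered the adjusted p of HTP7 to 9.87e-05 and of HTP1 to 0.00394, and raised that of HTP4 to 0.00120 and of HTP3 to 0.00598. Counting error is large for HTP6, HTP8 and HTP9, with flask spread beside it in the water group for HTP6 and HTP8, and flask spread limits HTP1 and HTP5. The cause of the changes between settings was not tested.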
